A study of Homo sapiens with 26 samples.

Results

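H3K27ac, the acetylation of lysine 27 on histone H3, was compared in HCT116 cells between 1 h of Nutlin-3a and vehicle alone, with a peak list from each of 2 replicates per condition. HCT116 is a human colorectal cancer line that keeps a wild-type p53 response. The control cells (0 h) had received DMSO, the solvent of the drug, and the treated cells had received Nutlin-3a for 1 h. No knockdown or tag was carried by either group, so the comparison rests on a single line of unmodified cancer cells. These 4 lists are part of a set of 16, of which 10 are for H3K27ac. The remaining 6 are for H3K4me1, a mark of enhancers. The H3K27ac lists also include 10 h of Nutlin-3a and an HCT116 derivative named for the cohesin subunit RAD21 (the RAD21 line) at 0 h and 1 h. Per the study, every RAD21 allele of that line carries an auxin-inducible degron, and RAD21 was depleted with 5-Ph-IAA before Nutlin-3a in the cells used for H3K27ac. The labels of these lists give DMSO or Nutlin-3a and do not name 5-Ph-IAA. Peaks of all H3K27ac lists were merged into 87570 regions, of which 48135 were called in at least 1 of the 4 lists and 21719 in all 4. A region was gained at 1 h when both 1 h lists called it and neither 0 h list did, and lost when the reverse held. Its position was further ranked within each list, as described with those results.

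H3K27ac is laid down by the acetyltransferases p300 and CBP and is found at active promoters and active enhancers. Nutlin-3a occupies the pocket of HDM2 (encoded by MDM2) that binds p53, which frees p53 from its ubiquitin ligase. The stabilized p53 tetramer binds response elements made of a pair of decamers and raises the transcription of genes for cell cycle arrest, apoptosis, DNA repair and its own feedback inhibitors. Many of these elements lie far from the promoters they act on.

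The sequences below show what such elements look like at regions that appeared at 1 h. Of the 1320 gained regions, 32 held an adjacent pair of p53 decamers with at most 2 mismatches within 250 bp of the strongest summit, and 5 of them held a pair with no mismatch. Of those 5, 4 are given, with the next one, which had 1 mismatch, 5′ to 3′ on the plus strand of GRCh37, each as a run of 30 bases with the pair in capitals. The names are those of the nearest protein-coding start.
near C2orf74 (chr2:61505089-61505118, exon): tgctcGGACTTGCCCGGACTTGCCTtccgg
near MED4 (chr13:48646592-48646621, intergenic): gtccaGGGCTTGTCTGGGCATGCCCacaaa
near GPBP1 (chr5:56363545-56363574, intergenic): acaagGGGCTTGCCTAAACATGTCCacagt
near HLA-B (chr6:31296588-31296617, intergenic): agctgGGACATGTTTGGGCATGTCTggtca
near SLC6A16 (chr19:49775649-49775678, intergenic): cagtgGTACTAGCTCAAGCTAGTCTagatt

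Promoter regions of 5 known p53 targets that were already acetylated at 0 h are shown for comparison, with the best pair found anywhere in the acetylated region in capitals. CDKN1A encodes the cell cycle inhibitor p21, MDM2 the inhibitor of p53, BAX and FAS an effector and a receptor of apoptosis, and PLK2 a kinase of the centrosome cycle. The pairs of CDKN1A, MDM2, BAX and FAS had 2 mismatches each and that of PLK2 had 0.
CDKN1A (chr6:36644221-36644250): gtcagGAACATGTCCCAACATGTTGagctc
MDM2 (chr12:69202698-69202727): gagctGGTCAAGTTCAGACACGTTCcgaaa
BAX (chr19:49458465-49458494): cccccGGGCAGGCCCGGGCTTGTCGcccgc
FAS (chr10:90751061-90751090): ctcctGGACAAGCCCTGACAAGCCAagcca
PLK2 (chr5:57758096-57758125): gtgcaGGGCAAGTCCAGGCATGTTTctcat

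The 4 lists were not made alike. Both 0 h lists and 1 h replicate 1 hold 31640 to 33976 peaks that cover 30.7 to 31.9 Mb, and their peak names share a form without the word input. The list of 1 h replicate 2 holds 40851 peaks that cover 59.5 Mb, with names of the other form. For that list the treatment and the form cannot be told apart, so the main results are also given for 1 h replicate 1 alone against 0 h. Over regions called in all 4 lists, the median fold was 14.2 in 1 h replicate 2. It was 6.25 and 6.63 in the 0 h lists and 6.80 in 1 h replicate 1. The 0 h lists held 4 and 3 mitochondrial peaks, 1 h replicate 1 held 3 and 1 h replicate 2 held 0. Whether lists of both forms were called against input in the same way cannot be read from the files. The lists carry no read counts, and the library statistics of the study were not used here, so no value could be set against its depth. Promoters of 10 of 14 epithelial markers were called in all 4 lists. None of the promoters of 9 haematopoietic, 8 fibroblast or 3 endothelial markers was called in any of the 4 lists, nor were 3 of the 4 neural ones.

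Regions that appeared or disappeared within 1 h were mostly weak and lay away from promoters. The 1320 gained regions were 2.74% of the 48135 regions, and the 1159 lost regions 2.41%. In 1 h replicate 1 alone against 0 h the shares were 10.3% gained and 5.2% lost, of 37921 regions called in any of those 3 lists. Of the gained regions, 14.9% were promoters, 13.3% exonic, 46.2% intronic and 25.6% intergenic. Among the lost ones, 10.96% were promoters, 12.4% exonic, 43.9% intronic and 32.7% intergenic. The promoter share was 58.2% over the regions called in all 4 lists and 31.3% over those called in any. The median distance to a protein-coding start was 26383 bp for gained, 28922 bp for lost and 191 bp for constantly called regions. With 1 h replicate 1 alone, 11.03% of gained and 13.05% of lost regions were promoters, so the order of gained and lost was turned around.

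**Figure D1:**
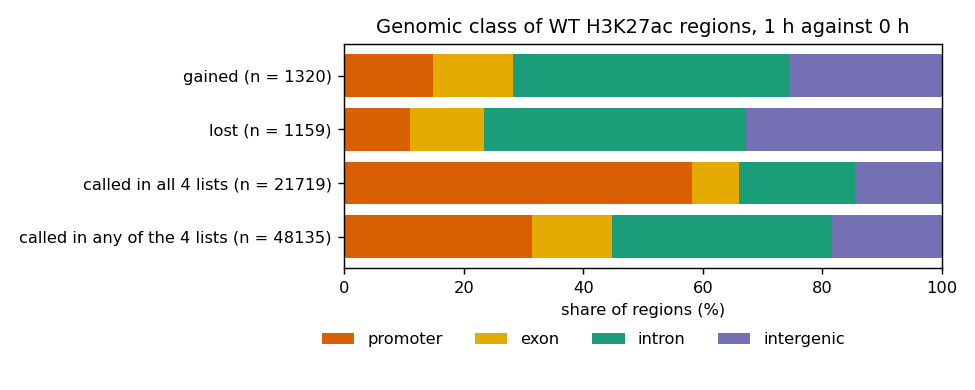
Share of regions (%, horizontal axis) that were promoter, exon, intron or intergenic, for regions gained at 1 h, lost at 1 h, called in all 4 WT lists and called in any of them. Introns and intergenic sequence make up most of the gained and lost bars, and promoters 58.2% of the bar for regions called in all 4 lists.

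Both sets were weak beside constantly called regions, though above the lowest −log10 q of the 4 lists, which was 1.30 to 1.31. The median −log10 q of the gained regions was 5.12 in 1 h replicate 1 and 5.08 in 1 h replicate 2, and that of the lost regions 4.87 and 4.62 in the 0 h lists. Regions called in all 4 lists had medians from 39.8 to 51.9. The −log10 p of a region's strongest peak was placed among all peaks of its list (100 the strongest). By this measure the gained regions had median percentiles of 18.8 and 35.9, and the lost ones 20.4 and 18.0. Only 22 gained regions (1.67%) and 10 lost ones (0.863%) exceeded a percentile of 50 in both lists that called them. They were also narrow, with median merged widths of 1052 bp (gained) and 680 bp (lost) against 2301 bp for regions called in all 4 lists. A constantly called region lay within 5 kb of 234 gained regions (17.7%) and of 94 lost ones (8.11%).

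The strongest gained regions included chromosome ends. Of the 10 with the highest mean percentile in the 1 h lists, 5 held the telomere repeat, searched as 2 adjoining units on both strands, and 4 of those began or ended about 10 kb from a chromosome end. The strongest, on chromosome 12, was at percentiles of 99.7 and 90.9 in the 1 h lists. The others were chr18:10000-10628 at 78.1 and 65.7, chr1:249239903-249240622 at 69.3 and 63.9, chr1:10004-10466 at 64.9 and 65.9, and chr15:102521069-102521394 at 63.6 and 63.0. Over all gained regions 7 held the repeat (0.53%), as did 0 of 1159 lost regions and 16 of the 48135 regions (0.0332%). By definition all 7 were also gained with 1 h replicate 1 alone, where they made up 0.179% of 3915 gained regions. In the RAD21 line both lists called these 5 regions at 0 h and also at 1 h. Reads from telomeric repeats map to several chromosome ends, and the place given to them is uncertain.

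The other leading gained regions were single sites near genes. Class was set by any transcript, so the gene with the nearest start need not hold an intronic or exonic site. An intronic site 30308 bp from the start of LTBP1, the gene of a protein that stores TGF-beta in the matrix, lay at chr2:33141294-33141712. It reached percentiles of 99.2 and 70.7, with unlike folds of 27.2 and 3.68 in 1 h replicates 1 and 2. In the RAD21 line both lists called it at 0 h and also at 1 h. An intergenic region near ACTG1, the gene of gamma actin, was at 58.5 and 78.6. An intron of GIPC2 was at 59.1 and 64.9, a region near KIAA0040 at 55.5 and 66.2, and an exon of CLPTM1L at 47.2 and 74.5. The GIPC2 region was called in both lists of 10 h, as was the region near ACTG1, whereas those of LTBP1 and KIAA0040 were called in neither. H3K4me1 was called in both 0 h lists at the regions of ACTG1, GIPC2, KIAA0040 and CLPTM1L, and at LTBP1 in both 1 h lists and neither 0 h list.

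Lost regions were led by single sites on several chromosomes. The strongest, chrY:10019200-10020005, was at percentiles of 82.0 and 70.1 in the 0 h lists. A promoter of the pseudogene RALGAPA1P1 followed at 67.6 and 66.7. The promoter of BEST1, which encodes a chloride channel, was at 65.8 and 67.2. Among the leading sites it was the one promoter of a protein-coding gene. It was also called in both lists of 10 h and in both of the RAD21 line at 0 h, but in neither of the RAD21 line at 1 h. The next were regions near LYPD4 (66.4 and 59.1) and EDNRA (64.9 and 54.5), an intron of CDC27 (68.0 and 45.5), an intron of ZHX2 (55.0 and 56.3), regions near ALG10B (61.3 and 49.9) and GRM4 (55.9 and 51.9), and an intron of FRG2C (52.2 and 54.7). CDC27 and FRG2C have near-identical copies elsewhere in the genome, so reads there may have been split and these 2 losses are uncertain. Whether the other leading sites, that on chromosome Y included, have such copies was not tested.

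Promoters of protein-coding genes made up 120 gained and 54 lost regions. The genes named here were chosen after their values were seen, from the strongest of each set. They do not follow the order of strength. Gained promoters stronger than that of DRC7 were passed over, such as those of LRRC74B (51.4 and 57.1 in the 1 h lists) and SLFN12 (50.1 and 50.8). Among gained promoters, that of SPEF1 was at percentiles of 53.3 and 61.3 in the 1 h lists, that of CFAP276 (with ELAPOR1) at 43.8 and 56.3, that of RSPH14 at 32.3 and 67.3, that of DRC7 at 38.6 and 52.1, and that of FOXJ1, a transcription factor, at 49.4 and 49.6. The highest was that of DLG4, a synaptic scaffold, at 56.2 and 60.8. Lost promoters after BEST1 were led by WNT4, a Wnt ligand, at 46.5 and 41.9 in the 0 h lists, and by CDIP1, which encodes an inducer of apoptosis, at 52.3 and 34.0. Gained regions were spread over 1203 nearest genes with at most 5 per gene (CMIP, which had 42 regions in all), and lost ones over 1057 with at most 5 (DEFB115 and NBPF10).

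Regions nearest to p53 target genes were gained and lost at close to the share of all regions. Within 100 kb of the starts of 62 p53 targets taken from textbook functions lay 195 regions that were nearest to one of them, of which 5 were gained (2.56%, beside 2.74% of all regions) and 5 lost (2.56%, beside 2.41%). The gained ones lay near FANCC (percentiles of 40.2 and 54.5 in the 1 h lists), PMAIP1 (7.40 and 50.1), ARHGEF3 (7.01 and 45.1), GPX1 (5.19 and 46.1) and GADD45A (19.2 and 5.06). PMAIP1 encodes the pro-apoptotic protein NOXA, and its gained site was 22574 bp from the start, at chr18:57589822-57591202. The lost ones lay near PERP (40.3 and 22.6 in the 0 h lists), FANCC (30.2 and 12.6), TOB1 (18.5 and 17.4), TNFRSF10A (3.97 and 18.1) and GADD45A (15.0 and 7.06). For FANCC, a DNA repair gene, and GADD45A, a growth arrest gene, 1 site was gained and another lost. None of these 10 sites held a p53 pair with at most 2 mismatches in its summit window. With 1 h replicate 1 alone, 13 of 151 regions near these genes were gained (8.61%, beside 10.3% of all) and 9 lost (5.96%, beside 5.2%).

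The p53 pair was present in 2.42% of gained windows (95% Wilson interval 1.72 to 3.402, counting error only), 1.38% of lost windows (0.852 to 2.23) and 1.23% of all 48135, so the share in gained regions was above that of all regions while its interval overlapped that of the lost ones. A single exact decamer ran the other way, with 12.6% of gained, 16.8% of lost and 12.9% of all windows. So did a control decamer with swapped flanks, with 18.7%, 21.7% and 19.1%, and this order was therefore not particular to the p53 decamer. A control pair with the same core and swapped flanks was present in 0.985%, 0.863% and 0.958%. With 1 mismatch or none, the shares were 1.21% of gained, 0.259% of lost and 0.48% of all windows, against 0.303%, 0.173% and 0.172% for the control. Regions gained with 1 h replicate 1 alone had a pair in 2.53% and the control in 1.07%. The regions of the sequences printed first were weak to middling in their lists. The one near C2orf74 reached percentiles of 39.3 and 52.9 in the 1 h lists and the one near MED4 14.0 and 55.9. The site near GPBP1 was at 8.86 and 35.9, that near HLA-B at 36.5 and 2.57, and that near SLC6A16 at 45.5 and 45.0. Where no such pair was found, this says only that these letters were not in the window.

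Most gained regions lay in chromatin that already carried H3K4me1. That mark, which the choice of regions did not use, was called in both 0 h lists at 84.4% of gained and 82.3% of lost regions, beside 78.2% of regions called in any of the 4 lists and 99.3% of those called in all. At 1 h it was called in both lists at 87.7% of gained and 80.2% of lost regions. H3K4me1 appeared together with H3K27ac (both 1 h lists, neither 0 h list) at 36 gained regions (2.73%), beside 0.785% of all. It disappeared together with H3K27ac at 9 lost regions (0.777%), beside 0.316% of all. For 1 h replicate 1 alone, H3K4me1 was in both 0 h lists at 65.6% of gained and 87.2% of lost regions.

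The other H3K27ac lists held part of these regions. At 10 h, 26.1% of the gained regions were called in both lists and 58.9% in neither. Of the lost regions 24.1% were called in both lists at 10 h and 55.6% in neither. Of the 48135 regions, 55.3% were called in both lists at 10 h and 35.7% in neither. In the RAD21 line 32.3% of gained regions were called in both lists at 0 h and 56.7% at 1 h. The corresponding shares of lost regions were 19.3% and 19.7%, and those of the 48135 regions 49.8% and 56.2%. The share of gained regions at 1 h was thus near that of all regions.

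Regions present throughout changed in rank. For the 18757 regions called in all 10 H3K27ac lists, the −log10 p of the strongest peak was ranked within each list and turned into a normal score, so that a change of 1 is 1 standard deviation of a list. Percentiles in what follows are among these 18757 regions, with 100 the strongest. By limma with Benjamini-Hochberg adjustment under 0.05, 14.3% ranked higher at 1 h (2683 regions) and 14.8% lower (2777), 29.1% together. Both 1 h ranks exceeded both 0 h ranks at 29.6% of regions and fell below them at 31.4%. The groups of lists did not overlap at 2681 of the higher calls and at all 2777 lower ones. That fixes the sign of these calls with either 1 h replicate alone. With 1 h replicate 1 alone against 0 h, 15.8% ranked higher and 16.2% lower. All 5460 calls had the same direction there, and 2100 of the higher and 2174 of the lower calls passed the test again. Ranking by the deposited fold enrichment in place of −log10 p gave 0 calls among 10 lists, with 1637 regions higher and 2056 lower at an unadjusted p under 0.05, and 1194 higher and 1171 lower calls without 1 h replicate 2. Calls are therefore statements on the −log10 p rank. Among protein-coding promoters 16.6% ranked higher and 16.7% lower, and among non-promoter regions 11.2% and 11.3%.

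Genes of DNA replication and growth stood among the largest rises. MCMBP, whose product binds the MCM helicase, moved from percentiles of 91.8 and 93.3 at 0 h to 100.0 and 99.9 at 1 h. TYMS, the gene of thymidylate synthase, moved from 53.7 and 46.5 to 90.4 and 93.2, a change of 1.39 ± 0.12 (SE; limma adjusted p = 4.3e-05). PA2G4, which encodes a growth regulator that binds ErbB3, went from 67.7 and 65.3 to 96.1 and 96.7 (1.38 ± 0.12, adjusted p = 4.3e-05). All 3 promoters already had a middle or high rank before treatment. TM7SF2, a sterol reductase gene of cholesterol synthesis, and TXNRD2, the gene of the mitochondrial thioredoxin reductase, instead started among the weakest regions. TM7SF2 moved from 0.976 and 0.32 to 29.5 and 47.4 (2.23 ± 0.19). TXNRD2 moved from 1.498 and 0.885 to 38.1 and 51.5 (2.14 ± 0.18). LY6E rose from 46.4 and 50.3 to 91.4 and 88.7, RGS10, a regulator of G protein signaling, from 53.2 and 56.5 to 95.4 and 92.9, and the promoter shared by ARSG and SLC16A6 from 75.6 and 80.5 to 98.6 and 98.7. The groups of lists did not overlap at any of these promoters, as at 2681 of all 2683 higher calls. Each change was therefore positive with 1 h replicate 1 alone (1.30 to 1.99). As the promoters were chosen by smallest p-value, neither adds support. A pair of regions on chromosome 16, at chr16:18493167-18497153 and chr16:15004053-15009632, also belonged to the top 10 (1.55 ± 0.13 and 1.76 ± 0.16), but they lie in near-identical copies of the NPIPA and PKD1 pseudogene family, so their values are uncertain.

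The largest falls were led by the interferon regulator IRF9. Its promoter, chr14:24628330-24631452, went from percentiles of 80.4 and 81.9 to 22.5 and 16.3 (−1.75 ± 0.13, adjusted p = 4.3e-05). FBXO38, the gene of an F-box protein, went from 97.2 and 96.3 to 65.7 and 55.0 (−1.58 ± 0.12). The promoter shared by ITFG1 and PHKB, the latter encoding a subunit of phosphorylase kinase, went from 98.6 and 98.0 to 68.8 and 72.1 (−1.58 ± 0.13). The groups of lists did not overlap at these 3 regions, nor at any of the 2777 lower calls. TTC8, a gene of the primary cilium, fell from 96.0 and 96.2 to 66.9 and 50.0, CREBRF from 90.3 and 90.2 to 40.5 and 29.9, and CCNG2, which encodes cyclin G2, from 89.4 and 89.2 to 47.3 and 43.97. PRKCZ (an atypical protein kinase C) fell by 1.16 on the score scale, CHD9 (a chromatin remodeler) by 1.28, TCP11L2 by 1.29 and LAMTOR3 (an adaptor of mTORC1 signaling) by 1.15. With 1 h replicate 1 alone the 10 changes lay between −1.11 and −1.64, their sign being fixed by that non-overlap.

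Away from promoters, the leading rises included sites that were among the weakest at 0 h, and the leading falls included strong ones. These regions were named by smallest p-value after the results were seen. A site in an exon region near MAEA moved from percentiles of 2.37 and 1.95 to 35.2 and 51.3, and an exonic one near TMOD3 from 0.421 and 1.11 to 22.96 and 33.2. A region at the start of chromosome 5, chr5:10010-11783, moved from 50.4 and 46.9 to 99.9 and 98.4. Its change of 2.72 ± 0.28 was the largest of the 18757 regions, and it fell by 0.38 in the RAD21 line. It and the next largest, chrX:155260019-155260404 near WASH6P at the end of chromosome X (2.60 ± 0.45), hold the telomere repeat, like the gained chromosome ends. An intergenic site 21062 bp from DDIT4, a stress-induced inhibitor of mTORC1, was strong at 0 h (94.7 and 96.1) and reached 99.9 in both 1 h lists (1.39 ± 0.16, adjusted p = 0.00016). An intron site near TENT4B, which encodes a poly(A) polymerase, rose from 0.187 and 0.0933 to 12.5 and 17.0. The falls were led by ZNF414 (93.7 and 92.3 to 59.5 and 54.6), SRRM3 (85.2 and 86.8 to 52.98 and 47.8), and a site near RABL2A (89.1 and 88.3 to 61.4 and 52.9).

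Promoters of p53 targets more often ranked higher than lower. Of 62 targets, 56 had a tested promoter region, of which 15 ranked higher (26.8%, beside 16.6% of all coding promoters) and 6 lower (10.7%, beside 16.7%). The median change was 0.17, and 0.10 with 1 h replicate 1 alone, beside 0.00 and 0.03 over all coding promoters. By fold it was 0.25, but −0.08 by fold with 1 h replicate 1 alone, where 5 ranked higher and 4 lower. Without 0 h replicate 1, 8 ranked higher and 2 lower, and without 0 h replicate 2, 5 and 1. The plot of the 4 list percentiles for each promoter shows the groups apart at every promoter that passed the test, and the direction differing by gene. Such separation held at 2681 of 2683 higher and all 2777 lower calls over all regions, so it adds no support.

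**Figure D2:**
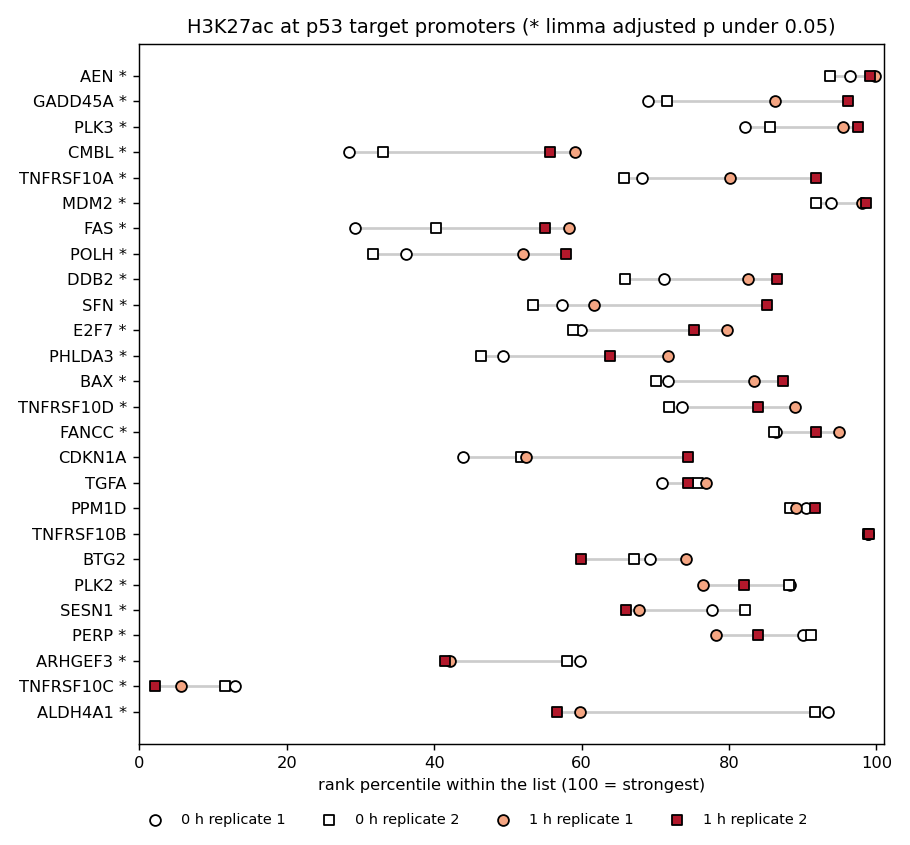
Rank percentile (horizontal axis, 100 the strongest of 18757 regions) of p53 target promoters in each of the 4 lists, with 0 h as open and 1 h as filled symbols and replicates as circles and squares. Promoters with an asterisk passed limma's test, and those without one are given whatever their values. AEN, GADD45A and PLK3 lie highest by change and ALDH4A1 lowest.

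Among 9 genes of cell cycle arrest, 4 ranked higher (44.4%, beside 16.6% of coding promoters) and 1 lower (11.1%, beside 16.7%). PLK3, a stress-responsive kinase, moved from percentiles of 82.1 and 85.5 to 95.5 and 97.4 (0.83 ± 0.13, adjusted p = 0.00096). GADD45A moved from 69.0 and 71.6 to 86.2 and 96.2 (0.89 ± 0.17, adjusted p = 0.0023). E2F7, a repressor of E2F targets, moved from 59.9 and 58.8 to 79.8 and 75.3 (0.52 ± 0.12, adjusted p = 0.0056). These rises were present with 1 h replicate 1 alone, at 0.71, 0.56 and 0.60. PLK2 went the other way, from 88.3 and 88.2 to 76.4 and 82.0 (−0.37 ± 0.12, adjusted p = 0.031). CDKN1A was at 43.9 and 51.7 at 0 h and at 52.4 and 74.5 at 1 h. Its change of 0.41 ± 0.16 did not pass (adjusted p = 0.072), and was 0.12 with 1 h replicate 1 alone and 0.71 with replicate 2 alone. BTG2, an antiproliferative gene, was at 69.3 and 67.1 against 74.2 and 59.9, with the 1 h lists on either side of the 0 h ones. The call of PLK2 was lost without either 0 h replicate and without 1 h replicate 1.

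The feedback and apoptosis genes were led by MDM2 and AEN. MDM2 was the 1 member of 6 feedback genes to pass (16.7%, beside 16.6% of coding promoters that ranked higher). It moved from 93.8 and 91.8 to 98.0 and 98.5 (0.65 ± 0.16, adjusted p = 0.0098). By fold with 1 h replicate 1 alone its change was −0.34, and its call was lost without 0 h replicate 2. PPM1D, the phosphatase of the same loop, was at 90.4 and 88.2 against 89.1 and 91.6, and did not pass (0.06 ± 0.13). Of 12 apoptosis genes with a tested promoter, 5 ranked higher (41.7%, beside 16.6% of coding promoters) and 2 lower (16.7%, as over coding promoters). AEN, the gene of an apoptosis-enhancing nuclease, moved from 96.4 and 93.7 to 99.8 and 99.2 (0.94 ± 0.21, adjusted p = 0.0055). FAS moved from 29.2 and 40.2 to 58.3 and 55.0 (0.57 ± 0.13, adjusted p = 0.0059), and BAX from 71.8 and 70.1 to 83.4 and 87.3 (0.50 ± 0.14, adjusted p = 0.018). The call of FAS was lost without 0 h replicate 1 and that of BAX without either 0 h replicate. Of the TRAIL receptor genes, TNFRSF10A rose by 0.68 ± 0.16 and the decoy TNFRSF10D by 0.50 ± 0.14. TNFRSF10B was at 98.9 in both 0 h lists and 98.8 and 99.04 at 1 h (0.02 ± 0.18, adjusted p = 0.95), the top of the range in every list. The decoy TNFRSF10C and PERP, named beyond the rule because they are the 2 that fell, changed by −0.65 ± 0.22 and −0.43 ± 0.14.

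The remaining p53 groups differed. Of 6 DNA repair genes 3 ranked higher (50%, beside 16.6% of coding promoters) and 0 lower (beside 16.7%). Their median change was 0.38, and 0.46 with 1 h replicate 1 alone. POLH, a translesion polymerase, moved from 36.2 and 31.7 to 52.0 and 57.8, DDB2, a damage sensor, from 71.2 and 65.8 to 82.6 and 86.5, and FANCC from 86.4 and 86.1 to 94.9 and 91.8. Of 9 metabolic targets 0 ranked higher and 2 lower (22.2%, beside 16.7% of coding promoters), with a median change of −0.23. In 1 h replicate 1 alone 4 ranked lower, with a median of −0.38. ALDH4A1, a mitochondrial enzyme of proline degradation, fell from 93.4 and 91.6 to 59.8 and 56.6 (−1.23 ± 0.13, adjusted p = 9.6e-05), and SESN1, a stress-induced inhibitor of mTORC1, from 77.7 and 82.2 to 67.8 and 66.0. Of 15 other targets, CMBL and PHLDA3 ranked higher (0.69 ± 0.15 and 0.52 ± 0.14) and ARHGEF3 lower (−0.43 ± 0.12). These shares of 13.3% and 6.67% lay below those of coding promoters. TGFA, a ligand of the EGF receptor, was at 70.9 and 75.8 against 76.9 and 74.4 and did not pass. The study's text names 26 genes as targets over distance, a list it chose on this system and so no independent evidence. Of their promoters 9 ranked higher (34.6%, beside 16.6% of coding promoters) and 4 lower (15.4%, near the 16.7%). JAG2, a Notch ligand, moved from 35.4 and 33.5 to 64.7 and 73.8 (0.91 ± 0.12, adjusted p = 0.00034). TGFBR2, E2F2 and GTF2H4 changed by 0.75 ± 0.13, 0.87 ± 0.16 and 0.92 ± 0.17.

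Distal regions near p53 targets held some of the sites that rose. Of 31 non-promoter regions nearest to a p53 target within 100 kb, 7 ranked higher (beside 11.2% of non-promoter regions) and 2 lower (beside 11.3%). An intronic region 37824 bp from BBC3, the gene of the pro-apoptotic protein PUMA, moved from percentiles of 4.73 and 5.94 to 17.5 and 27.1 (0.84 ± 0.17, adjusted p = 0.0032). An exonic region 7142 bp from GDF15, a secreted stress cytokine, moved from 60.5 and 64.4 to 76.1 and 84.9 (0.55 ± 0.13, adjusted p = 0.0074). Near PMAIP1, a site 8048 bp away moved from 0.203 and 0.0853 to 4.86 and 7.49 (1.46 ± 0.38, adjusted p = 0.012) and a site 49214 bp away from 18.5 and 17.2 to 28.3 and 49.2 (0.62 ± 0.17, adjusted p = 0.017). These sites were weak before treatment, except that of GDF15. An intron of TGFA rose by 0.45 ± 0.12, a site near GADD45A by 0.48 ± 0.16 and one near DKK1, a Wnt antagonist, by 0.93 ± 0.31. The 2 that fell lay near BTG2 (56.9 and 52.1 to 36.97 and 18.6) and PHLDA3 (19.8 and 14.6 to 4.74 and 0.576). With 1 h replicate 1 alone, the sites of BBC3, GDF15 and TGFA passed again, as did both that fell, and those of PMAIP1, GADD45A and DKK1 did not.

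Regions with a p53 pair in the summit window tended upward. Of 127 such regions tested, 32 ranked higher (25.2%, 95% Wilson interval 18.5 to 33.4) and 5 lower (3.94%, 1.69 to 8.89), with a median change of 0.20. The 138 regions with the control pair split into 15.9% higher and 14.5% lower, with a median of 0.06. The median over regions with a p53 pair was 0.18 with either 1 h replicate alone, 0.12 by fold, 0.13 by fold with 1 h replicate 1 alone, and 0.00 in the RAD21 line. The groups of lists did not overlap upward at 52 of the 127 and downward at 23, beside 29.6% and 31.4% of all tested regions. Examples, chosen after their values were seen, are an intron region near DCUN1D3 (67.3 and 70.0 to 86.0 and 88.8), the promoter of MARVELD1 (60.5 and 62.4 to 85.7 and 89.2), a site near ERRFI1 (14.9 and 10.6 to 28.1 and 55.9) and one near MTHFD1L with an exact pair (45.9 and 47.1 to 58.5 and 68.7). DDB2, CMBL, FAS and BAX, described above, belong to the same 32. The largest fall with a pair was at the TTC8 promoter, and another was at an exact pair near MYF5 (34.6 and 41.5 to 9.12 and 14.0).

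Lists outside the p53 pathway were described in the same way. They were chosen with earlier results of these data known, so their counts are descriptions and support nothing. Their counts are to be read against all coding promoters, of which 16.6% ranked higher and 16.7% lower, and 20.4% and 17.8% with 1 h replicate 1 alone. In the plot of changes by gene list, the median of the 4 lists is highest for DNA replication promoters and lowest for those of the interferon response. It is lowest with 1 h replicate 1 alone for immediate early genes (−0.33, beside −0.13 for the interferon response).

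**Figure D3:**
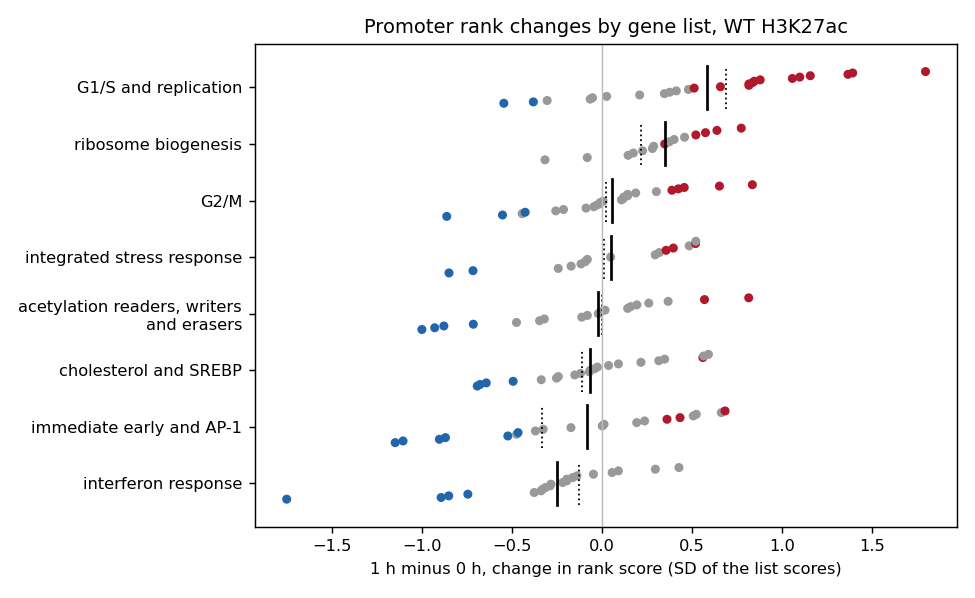
Change in rank score from 0 h to 1 h (horizontal axis, in SD of a list's scores) of each tested promoter in 8 gene lists, with points in red for those that ranked higher, blue for lower and grey for those that did not pass limma's test. Solid bars give the median of a list and dotted bars the same with 1 h replicate 1 alone. The median of the G1/S and replication list is 0.58 and that of the interferon response −0.25.

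Of 24 tested G1/S and replication promoters, 13 ranked higher (54.2%, beside 16.6% of coding promoters) and 2 lower (13 and 3 with 1 h replicate 1 alone). The list includes MCMBP and TYMS, already named above by smallest p-value, so its share is in part built in. The median change was 0.58, and it kept its sign with 1 h replicate 1 alone (0.69), by fold (0.57) and by fold with 1 h replicate 1 alone (0.18). After MCMBP and TYMS, MCM7, a subunit of the replicative helicase, moved from 92.7 and 90.7 to 99.6 and 99.8 (1.37 ± 0.15, adjusted p = 0.00011). E2F1, the activator of S-phase genes, moved from 67.5 and 68.3 to 95.8 and 93.6 (1.16 ± 0.12, adjusted p = 0.00012). Of 15 ribosome biogenesis promoters 5 ranked higher (33.3%) and 0 lower, and 6 and 1 with 1 h replicate 1 alone. Their median was 0.35, and −0.08 by fold with 1 h replicate 1 alone. POLR1B, a subunit of RNA polymerase I, moved from 48.0 and 45.9 to 70.5 and 72.1 (0.64 ± 0.11, adjusted p = 0.0013). WDR12 and NOP56, of ribosome assembly, changed by 0.57 ± 0.13 and 0.52 ± 0.12, and UBTF, the polymerase I activator, by 0.77 ± 0.21. G2/M promoters were divided, with 5 of 24 higher (20.8%) and 3 lower (12.5%), 6 and 3 with 1 h replicate 1 alone, and a median of 0.06. CDC25C, the phosphatase that activates CDK1, fell from 98.8 and 98.97 to 93.3 and 90.9 (−0.86 ± 0.14) and the motor gene CENPE fell by 0.55 ± 0.13, whereas the kinase gene NEK2 rose from 15.99 and 20.6 to 51.6 and 42.5 (0.83 ± 0.15) and KIF23 rose by 0.65 ± 0.15.

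Immediate early genes, which respond to growth factors within minutes, held 6 of 20 promoters that ranked lower (30%, beside 16.7% of coding promoters) and 3 higher (15%, beside 16.6%). These counts were 11 and 1 with 1 h replicate 1 alone. The median of −0.09 was −0.33 with 1 h replicate 1 alone and turned positive (0.24) by fold. EGR2 fell from percentiles of 91.9 and 92.0 to 67.1 and 52.2 (−1.15 ± 0.14, adjusted p = 0.0002). NR4A1 fell from 97.7 and 98.4 to 85.6 and 90.8 (−0.87 ± 0.15, adjusted p = 0.0012), FOS from 99.4 and 99.1 to 93.1 and 94.3 (−0.91 ± 0.16, adjusted p = 0.0013), and KLF6 from 99.7 and 99.7 to 88.7 and 98.1 (−1.11 ± 0.24, adjusted p = 0.0051). These promoters were among the strongest of the lists at 0 h. KLF6 had a change of 0.09 by fold over all lists, and of −1.38 by fold with 1 h replicate 1 alone.

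Interferon response promoters had 4 of 20 lower (20%, near the 16.7% of coding promoters) and 0 higher (beside 16.6%), and 5 and 0 with 1 h replicate 1 alone. They had a median of −0.25 that was −0.13 with 1 h replicate 1 alone, −0.41 by fold and −0.00 by fold with 1 h replicate 1 alone. IRF9 is among the 4. STAT2, which acts with it in interferon signalling, fell from 85.2 and 81.5 to 56.2 and 49.7 (−0.90 ± 0.12, adjusted p = 0.0003). ISG20, an interferon-induced nuclease, fell from 77.9 and 74.6 to 45.9 and 43.2 (−0.85 ± 0.14, adjusted p = 0.00092). The listed effector genes with no call ranged up to 0.43.

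Stress and metabolic lists showed opposed members. In the integrated stress response, 3 of 15 promoters ranked higher (20%) and 2 lower (13.3%), near the shares of all coding promoters, and 2 and 2 did with 1 h replicate 1 alone. DDIT3, the transcription factor CHOP, fell from 86.8 and 88.3 to 56.6 and 67.0 (−0.85 ± 0.14), and CHAC1, a glutathione-degrading enzyme, from 90.1 and 90.6 to 74.8 and 68.9 (−0.72 ± 0.11). TRIB3 and DDIT4 rose by 0.39 ± 0.11 and 0.35 ± 0.12. Of 21 cholesterol promoters 4 ranked lower (19.05%, near the 16.7% of coding promoters) and 1 higher (4.76%), and 6 and 3 with 1 h replicate 1 alone. CYP51A1, a sterol demethylase, fell from 96.7 and 95.9 to 83.9 and 89.1, IDI1 from 92.4 and 92.1 to 72.1 and 83.4, MVK from 97.7 and 97.9 to 93.5 and 87.0, and INSIG1, the sterol sensor, from 90.5 and 90.6 to 82.9 and 75.5. The list's median was −0.07. TM7SF2, of the same pathway but not on the list, had the opposite direction. In Wnt and intestinal stem cell genes 1 of 11 passed, EPHB2 (73.9 and 72.9 to 64.2 and 41.7), and among 5 EGF receptor ligands 1, EREG (40.3 and 44.7 to 51.4 and 83.5), where the 1 h replicates lay far apart. Both calls were lost with 1 h replicate 1 alone.

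Genes that write, read and erase acetylation had 4 of 19 promoters lower (21.1%, beside 16.7% of coding promoters) and 2 higher (10.5%, beside 16.6%), and 6 and 3 with 1 h replicate 1 alone. HDAC3, a deacetylase, fell from 80.2 and 79.9 to 42.7 and 50.2 (−0.93 ± 0.12, adjusted p = 0.00029). KAT6B, an acetyltransferase, fell from 98.0 and 98.5 to 89.7 and 82.9 (−1.002 ± 0.138). KAT2A, the acetyltransferase GCN5, rose from 67.3 and 72.7 to 90.6 and 91.3 (0.81 ± 0.11, adjusted p = 0.00043). These 3 kept their direction with 1 h replicate 1 alone, at −1.03, −0.85 and 0.79.

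Of the motifs searched, the cAMP response element (CRE) had the highest share of regions that ranked lower. Motifs other than the p53 pair were chosen with results of these data known. The palindrome TGACGTCA, bound by factors of the CREB and ATF family, was in the summit window of 324 tested regions (0.904% of the 48135 regions held it), of which 120 ranked lower (37.04%, 95% Wilson interval 32.0 to 42.4) and 8 higher (2.47%, 1.26 to 4.80). Over all tested regions the shares were 14.8% and 14.3%. The median change was −0.31, and −0.28 with 1 h replicate 1 alone, −0.32 with replicate 2 alone, −0.23 by fold and −0.36 by fold with 1 h replicate 1 alone. In the RAD21 line the median was −0.14. Promoters made up 279 of the 324, with 107 lower and 7 higher, and 13 of the 45 non-promoter regions ranked lower. The palindrome itself contains CpG, and the windows that held it had a median of 8.18 CpG per 100 bp, a density at which 17.8% of regions ranked lower. Elements at the coding promoters with the smallest p-values are shown, with the palindrome in capitals.
FOXD3 (chr1:63788155-63788184): ggccgcggcccTGACGTCAcgcacggtcac
MAOA (chrX:43513862-43513891): cgggccctacaTGACGTCAcaaaggggcca
SCYL3 (chr1:169863445-169863474): tttcaggagagTGACGTCActcaacctgta
CBX8 (chr17:77770871-77770900): tactctcccgcTGACGTCAgttctcctccc
FOXD3, a neural crest regulator, fell from percentiles of 61.5 and 59.6 to 19.6 and 21.0. MAOA, the gene of monoamine oxidase A, fell from 92.0 and 88.6 to 61.1 and 43.6. SCYL3 fell from 98.8 and 99.02 to 88.6 and 91.8, and CBX8, of the Polycomb group, from 99.3 and 99.3 to 93.1 and 86.9. The 2 groups of lists were apart at each of the 4, as at every region called lower. CREM, a member of the CREB family, carried the element and fell by 0.83.

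The other motifs had smaller differences between directions. The CCAAT box (CCAAT, any 2 bases and G, in 11.4% of the 48135 regions) was in 2097 tested windows, of which 11.5% ranked higher and 18.7% lower. The AP-1 site (TGANTCA) was in 4027, with 10.9% higher and 12.2% lower. The interferon element (2 copies of GAAA with 2 bases between them, in 5.71% of regions) was in 971, with 12.2% higher and 13.3% lower. Of the CCAAT windows 283 ranked higher and 414 lower with 1 h replicate 1 alone, of those with AP-1 395 and 580, and of those with the interferon element 125 and 146. AP-1 was in 31.5% of gained and 34.2% of lost windows beside 24.5% of all, and in 27.4% and 34.9% with 1 h replicate 1 alone. It was however more frequent away from promoters, in 2955 of 6668 tested non-promoter regions and 1072 of 12089 promoters. Gained and lost regions were mostly not promoters, and the part of genomic class in these shares was not tested. The CRE was in 0.152% of gained and 0.259% of lost windows, beside 0.904% of all. It lay mostly at promoters, 279 of them against 45 non-promoter regions among those tested.

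**Figure D4:**
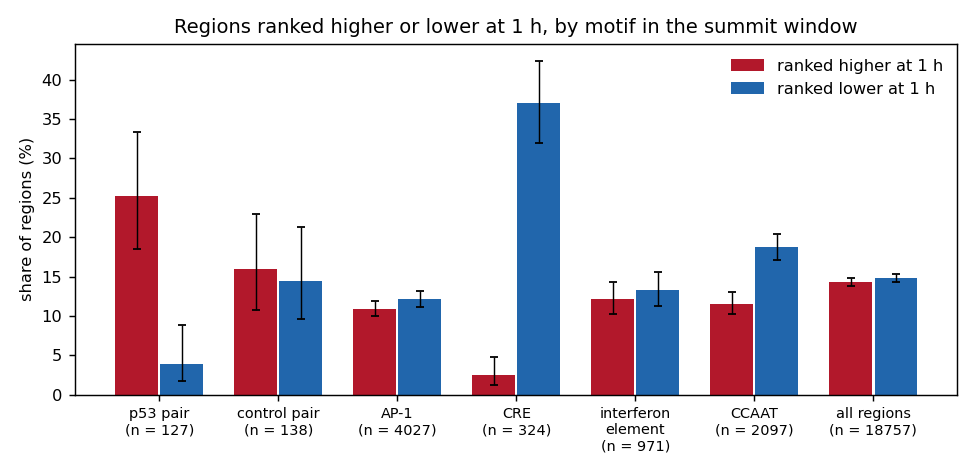
Share (%, vertical axis) of tested regions that ranked higher (red) or lower (blue) at 1 h, by motif in the summit window, with the number of regions under each name. Error bars are 95% Wilson intervals, which cover counting error only. The p53 pair stands out by 25.2% higher and the CRE by 37.04% lower.

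Rank changes also followed base composition. Sorted by CpG per 100 bp of the summit window into 5 bins of equal size, the share of regions that ranked higher was 13.7%, 8.64%, 10.5%, 14.9% and 23.7% from the lowest to the highest bin. The share that ranked lower was 9.12%, 14.9%, 22.5%, 17.8% and 9.73%. The highest bin had a median change of 0.12 (0.17 with 1 h replicate 1 alone) and the middle one −0.11 (−0.08). Among promoters alone the outer values were alike, with 24.0% higher in the highest bin and 22.5% lower in the middle one. The lists above differed in this measure: the median was 8.58 CpG per 100 bp for G1/S and replication promoters, 5.79 for interferon response promoters and 9.18 for p53 targets, beside 8.98 for all coding promoters. Its part in their changes was not tested.

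Chromosome X leaned toward lower ranks. Of its 501 tested regions 35 ranked higher (6.99%) and 134 lower (26.7%), and 22.6% ranked lower with 1 h replicate 1 alone. The median change was −0.15, and it was negative with each 1 h replicate alone (−0.11 and −0.18) and by fold (−0.22). Chromosome Y, with 2 tested regions of which 1 ranked lower, is left out. On the autosomes the share that ranked lower ran from 10.3% (chromosome 13) to 19.3% (chromosome 19).

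**Figure D5:**
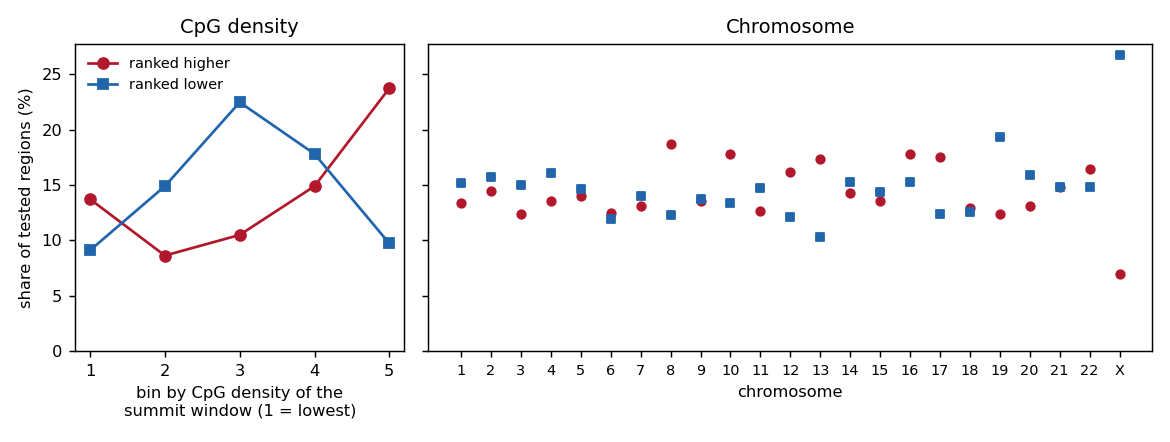
Share of tested regions (%, vertical axis) that ranked higher (red circles) or lower (blue squares) at 1 h, by bin of CpG density of the summit window (left) and by chromosome (right), without chromosome Y, which had 2 tested regions. The share ranked higher is largest in the highest bin, at 23.7%, and of the chromosomes drawn chromosome X has the largest share ranked lower, at 26.7%.

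The 1 h change was also set against that of the RAD21 line. In the same fit, the difference between both changes passed the adjusted threshold at 22.7% of the 18757 regions (4262), and at 0 when ranked by fold, with 2608 then at an unadjusted p under 0.05. All 10 H3K27ac lists entered this fit, and the RAD21 lists share the peak name form of 1 h replicate 2. Of the falls in WT, that of IRF9 was accompanied by 0.04 in the RAD21 line. Of the rises, MCMBP changed by 1.47 there, E2F1 by 1.07 and MDM2 by 0.62, and GADD45A by −0.33.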

How the data were processed

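Per the labels, each group combined a cell line, a mark and a time on Nutlin-3a and had 2 replicates, which the study describes as biological. According to the study's methods, the authors trimmed reads (Trim Galore 0.6.6), mapped them to GRCh37 (Bowtie2 2.3.2), removed low-quality, blacklisted and duplicate reads, and called peaks per library with MACS2 2.2.7.1 against input. Each deposited peak carries a fold enrichment (a ratio over local background), a −log10 p-value and a −log10 q-value. Whether input was used alike for all lists could not be read from them. All 3 values depend on a library's depth, which the lists do not give, so they were used within lists only. Columns of the authors' own comparisons were not used.

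Regions were merged over the 10 H3K27ac lists, and a list called a region when any of its peaks shared 1 bp or more with it. A promoter was a window of 1000 bp before and 200 bp after a GENCODE start on GRCh37, and the nearest gene is that of the nearest protein-coding start. Rank changes were fitted with limma 3.58.1 in R 4.3.3 (lmFit, eBayes with a trend, 5 groups of 2 lists, Benjamini-Hochberg adjustment over 18757 regions, threshold 0.05). The script was tested on simulated data. With 2 lists against 2, an exact permutation test cannot reach a p-value of 0.05, and none was run. Motifs were searched on both strands within 250 bp of the strongest summit. A p53 pair was 2 adjacent decamers of the p53 consensus without spacer, with the C and G of each decamer's core intact and at most 2 mismatches elsewhere, the core's inner bases included. Intervals are 95% Wilson intervals. They cover counting error only.

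The named regions were the 10 strongest gained and lost, the 10 rises and 10 falls in rank of smallest p-value, up to 4 promoters per gene list by smallest p-value, 10 p53 targets whatever their values, and gained or lost regions near p53 targets. Members, lists and motifs were chosen with earlier results of these data known. Alternatives covered the calling threshold, promoter size, motif window, ranking by fold, the form of peak names, the replicate block and leaving out each list. A few genes and sequences that the rules would name are not reported here.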

Additional observations from a re-analysis of the deposited data

Results flagged for a closer look

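Of 30 regions named for their rank change or whatever their values, 20 changed differently at 1 h in the RAD21 line than in WT by the interaction term of the limma fit (adjusted p under 0.05), beside 22.7% of all 18757 regions. Of the 30, 20 had been named for the smallest p-value of the WT change, which itself enters the difference, and 18 of those passed, so their count is a description and supports nothing. Of the 10 p53 targets given whatever their values, 2 passed. Ranked by fold, none of the 18757 regions passed that test (2608 at an unadjusted p under 0.05, beside 6710 in the ranking by −log10 p). Each difference given is on the score scale, with the WT change subtracted from that of the RAD21 line.

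Of the promoters that rose in WT, the difference was −2.27 for TM7SF2, −2.32 for TXNRD2, −0.76 for PA2G4, −0.85 for TYMS, −0.99 for LY6E, −1.01 for RGS10 and −1.69 for the promoter of ARSG and SLC16A6. The duplicated regions on chromosome 16 had −1.46 (nearest to RP11-1212A22.4) and −1.71 (nearest to NPIPA1). TM7SF2 and TXNRD2 changed by −0.04 and −0.18 in the RAD21 line, against 2.23 and 2.14 in WT.

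Of the promoters that fell in WT, the difference was 1.80 for IRF9, 1.47 for FBXO38, 1.18 for the promoter of ITFG1 and PHKB, 0.77 for TTC8, 2.43 for CREBRF, 1.07 for PRKCZ, 1.40 for CCNG2, 0.85 for CHD9 and 0.86 for LAMTOR3. CREBRF rose by 0.75 in the RAD21 line. Of the p53 targets given whatever their values, PLK2 differed by 0.60 (−0.37 in WT, 0.23 in the RAD21 line) and PPM1D by 1.11 (0.06 in WT, 1.17 in the RAD21 line). The lists of the RAD21 line and of 1 h replicate 2 share a form of peak name that both 0 h lists and 1 h replicate 1 in WT lack, so line and form cannot be fully told apart in these values.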

How the results depend on the processing

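Directions held more often than counts. Over 30 named regions and their alternatives, 192 values kept direction and side of the threshold, 40 lost the call, 2 gained it and 16 reversed. Lists give no depth, so weak regions cannot be separated from ones missed for lack of reads, and −log10 p ranks carry whatever depth does to them. Leaving out 1 list gave 1917 to 11534 gained regions and 1970 to 4490 lost ones. The highest count of gained regions came without 1 h replicate 1, that is from 1 h replicate 2 alone. Requiring a −log10 q of 5 left 428 gained and 316 lost.

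Regions ranked higher numbered 1283 to 3855 when 1 list was left out, and those ranked lower 1204 to 4003, lowest without 0 h replicate 1 and highest without 1 h replicate 1. The 4 WT lists fitted alone gave 811 higher and 901 lower. Ranked by fold, limma called 0 in either direction (1637 and 2056 at an unadjusted p under 0.05), 1194 and 1171 without 1 h replicate 2, and 0 with the 4 lists alone (561 and 863 unadjusted), the last chosen after seeing the data. By fold 5358 of the 5460 calls kept their sign. A model term for how peaks were named gave 2993 and 3022.

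Of the p53 promoters, 5 to 24 ranked higher and 1 to 8 lower when 1 list was left out. The 4 lists alone gave 5 and 1, ranking by fold 0 and 0, and ranking by fold without 1 h replicate 2 gave 5 higher. Promoters of 2500 bp to either side held 21.8% of gained and 19.4% of lost regions. A −log10 q of 5 gave 19.4% and 14.2%, and leaving out 1 h replicate 2 gave 11.03% and 13.05%. A window of 500 bp held the p53 pair in 3.86% of gained regions. A single exact decamer was in 12.6% of gained and 16.8% of lost windows, and the control decamer in 18.7% and 21.7%. H3K4me1 was called in at least 1 list at 0 h at 84.7% of lost regions.

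Reversals touched the promoters of CDKN1A, MDM2 and 4 other p53 targets. Ranked by fold without 1 h replicate 2, the change was −0.13 for CDKN1A, −0.34 for MDM2, 0.42 for BTG2, −0.48 for TNFRSF10B, −0.016 for TGFA and −0.38 for PPM1D. By fold it was 0.068 for BTG2 and −0.030 for PPM1D. The term for how peaks were named gave 0.18 for BTG2, −0.014 for TNFRSF10B and −0.014 for PPM1D. Leaving out 1 list gave −0.22 to 0.18 for BTG2, −0.014 to 0.052 for TNFRSF10B, −0.0032 to 0.14 for TGFA and −0.014 to 0.14 for PPM1D. The cause was not tested.

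Deviations of replicate 1 from the group means at 0 h and at 1 h correlated at −0.04 across 18757 regions. With 2 replicates per group, those of replicate 2 mirror them and add nothing. At 1 h the deviation also holds the unlike form of the lists, so whether replicate numbers pair the lists cannot be told. The fit with the replicate block called 2425 higher and 2450 lower, with 4773 of the 5460 calls kept, and 16 p53 promoters higher and 4 lower. CDKN1A passed and PLK2 did not under the block.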
